A study of Mus musculus with 9 samples.

Results

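Clozapine was set directly against haloperidol in 6 of the 9 arrays of the series: the 3 arrays from mice given clozapine and the 3 from mice given haloperidol, as their titles name them. The 3 arrays from untreated mice entered no test here and are given beside the drug values for orientation. The series measured messenger RNA on Affymetrix U74Av2 arrays, 1 animal per array, to set the long-term expression profile of an atypical antipsychotic beside that of a typical one in the mouse brain. All animals were male C57BL mice, listed at 4 weeks of age, housed singly and left for 2 weeks before any procedure. The clozapine group drank water dosed at 12 mg/kg/day for 4 weeks, the haloperidol group water dosed at 1.6 mg/kg/day for 4 weeks, and the controls received no drug over the same period. Both doses were described as the highest used in patients, so the groups were matched in route and time but not in milligrams. Each treatment began with 10 animals, of which 3 were chosen for arrays, and no RNA was pooled. The tissue was forebrain. Titles and the design text put it on the right side and the tissue entry on the left, so the side was not settled.

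Haloperidol blocks dopamine D2-type receptors strongly. Clozapine binds them more loosely and also acts at serotonin, muscarinic, adrenergic and histamine receptors. In the striatum the D2 receptor sits on projection neurons of the indirect pathway, which make the opioid precursor proenkephalin, and blocking it is known to raise enkephalin messenger RNA. Direct-pathway neurons instead make prodynorphin and substance P. A piece of forebrain also holds cortex, hippocampus, interneurons, glia and vessels. In such bulk tissue, fewer cells of a type and less RNA per cell cannot be told apart.

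Values are log2 probe set values, with each array shifted so that the median of the tested probe sets was equal in all arrays. A difference of 1 log2 unit is a doubling. Of 12422 probe sets that were not Affymetrix controls, 4969 were tested, namely those whose 9-array mean lay above the 60th percentile of such means, a log2 value of 5.15. Of these, 4538 carried exactly 1 gene symbol and stood for 3974 genes. A gene is represented by its tested probe set of highest mean. The standard error of clozapine minus haloperidol had a median of 0.164 log2 units over the tested probe sets. Per the design text each array is a separate animal, so the spread within a drug is that between 3 animals. The model used below, limma, also draws on the spread over all tested probe sets. Its p-values and standard errors rest on both.

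Neuronal transcripts marked the tissue as brain in all arrays. Snap25 of synaptic terminals lay between 12.96 and 13.22 in the 6 treated arrays, and Omp, a marker of the olfactory epithelium's sensory neurons, lay between 1.42 and 1.69. Single arrays stood apart in other ways. Haloperidol 3 alone had pituitary hormone transcripts, such as that of growth hormone (Gh), which stood at 12.49 in this array and no higher than 1.33 in the other treated arrays. Clozapine 1 alone had S100a8, a neutrophil transcript, at 7.54 against at most 3.47. Haloperidol 2 had high 18S ribosomal RNA control probe sets. Haloperidol 1 had the lowest hemoglobin, with Hba-a1 at 8.55 against 9.65 to 10.53 in the other treated arrays. For Actb and Gapdh, the mean gap from the 3′ to the 5′ control probe set, a measure of how far labelled RNA leans to the 3′ end, was 0.89, 1.13 and 1.14 in clozapine 1 to 3 and 1.30, 0.87 and 0.81 in haloperidol 1 to 3. These ranges overlap between the drugs, and the part of these properties in the gene results below was not tested beyond the fits that left arrays out.

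Arrays of different drugs resembled each other in pairs more than arrays of the same drug did. Clozapine 1 and haloperidol 3 correlated at 0.992 over the tested probe sets, clozapine 2 and haloperidol 2 at 0.988, and clozapine 3 and haloperidol 1 at 0.989. The remaining 6 correlations across drugs lay between 0.963 and 0.971. Within clozapine they lay between 0.965 and 0.975, and within haloperidol between 0.959 and 0.972. The median standard deviation of the differences within these pairs was 0.157 log2 units, against 0.281 when arrays of the same replicate number were set against each other. Controls 1 and 2 shared in this likeness. Control 1 correlated with clozapine 1 at 0.989 and with haloperidol 3 at 0.985. Control 2 correlated with clozapine 3 at 0.985, and with haloperidol 1 above all correlations within a drug. Haloperidol 2 reached at most 0.965 with a control, and control 3 at most 0.961 with any array. No label names the source of this likeness. The pairs were read from the data, hold 1 array of each drug, and are used below only to describe values, with no test. Differences within pairs are given in the order clozapine 1 minus haloperidol 3, clozapine 2 minus haloperidol 2, and clozapine 3 minus haloperidol 1.

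**Figure D1:**
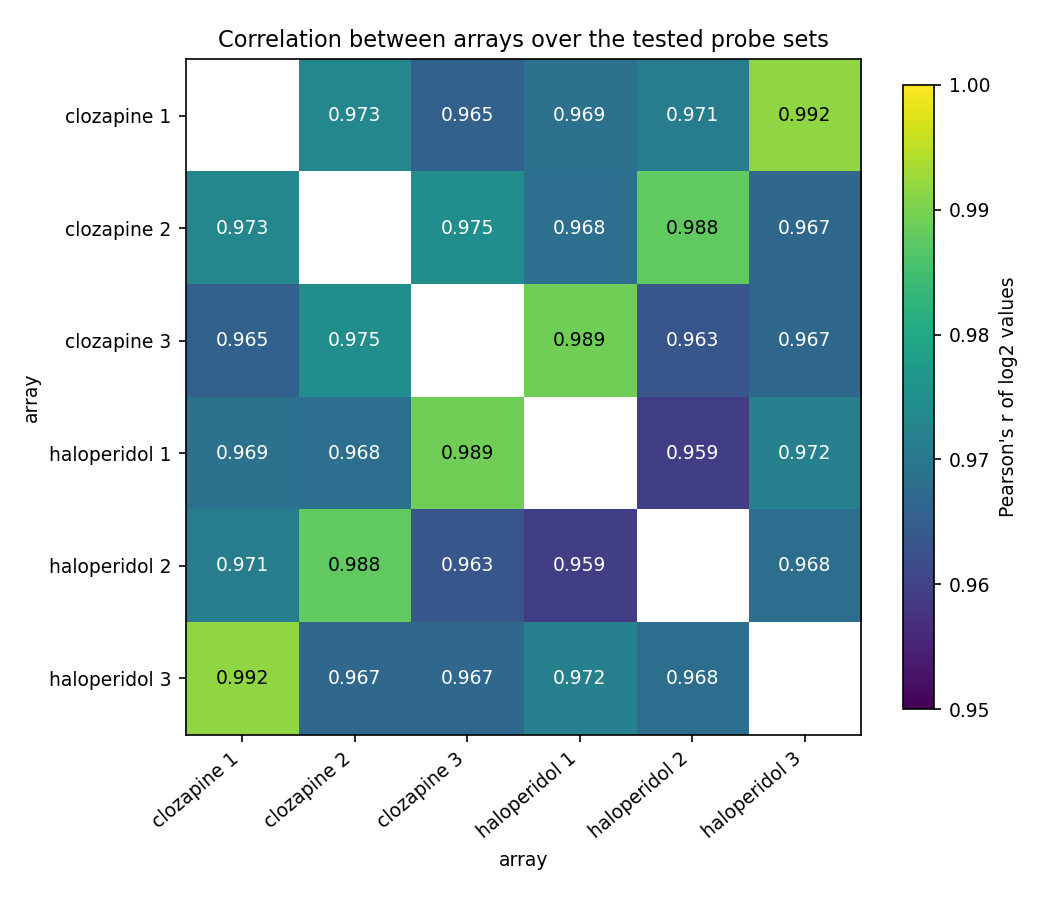
Pearson correlation of log2 values between each 2 of the 6 treated arrays over the 4969 tested probe sets, with rows and columns as arrays and the colour and printed number as r. Each clozapine array has its highest correlation with 1 haloperidol array, from 0.988 to 0.992, above all correlations within a drug.

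No probe set passed the test between the drugs. Limma, a linear model with a shared estimate of the spread, called 0 of 4969 probe sets (0%) at an adjusted p under 0.05, and the lowest adjusted p was 0.999. At an unadjusted p under 0.05 there were 21 probe sets higher with clozapine (0.423%) and 23 lower (0.463%). Together they were 0.885% of those tested, below the 5% that this threshold would give with no difference between the drugs. With each array centred on all probe sets instead, every difference read about 0.12 log2 units lower and the split was 1 higher and 110 lower. Without the filter on low values, 91 were higher and 59 lower with the centring kept, and 27 and 386 with the arrays centred on all probe sets. Differences were small: 30 probe sets differed by more than 0.5 log2 units and 1 by more than 1. The 3 clozapine arrays lay wholly above the 3 haloperidol arrays in 130 probe sets (2.62%) and wholly below them in 134 (2.7%). Both shares lie below the 5% per side that interchangeable arrays would give, so lack of overlap alone does not mark a difference. An exact permutation test of 3 arrays against 3 gives a gene without overlap its smallest two-sided p of 0.1, so it cannot call any gene. The genes below are therefore given as values that did not pass. The fit took no account of the array pairs, in which deviations from the group means correlated at 0.71 to 0.73. Their part in the counts above was not tested, and 0 calls do not show that the drugs act alike.

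**Figure D2:**
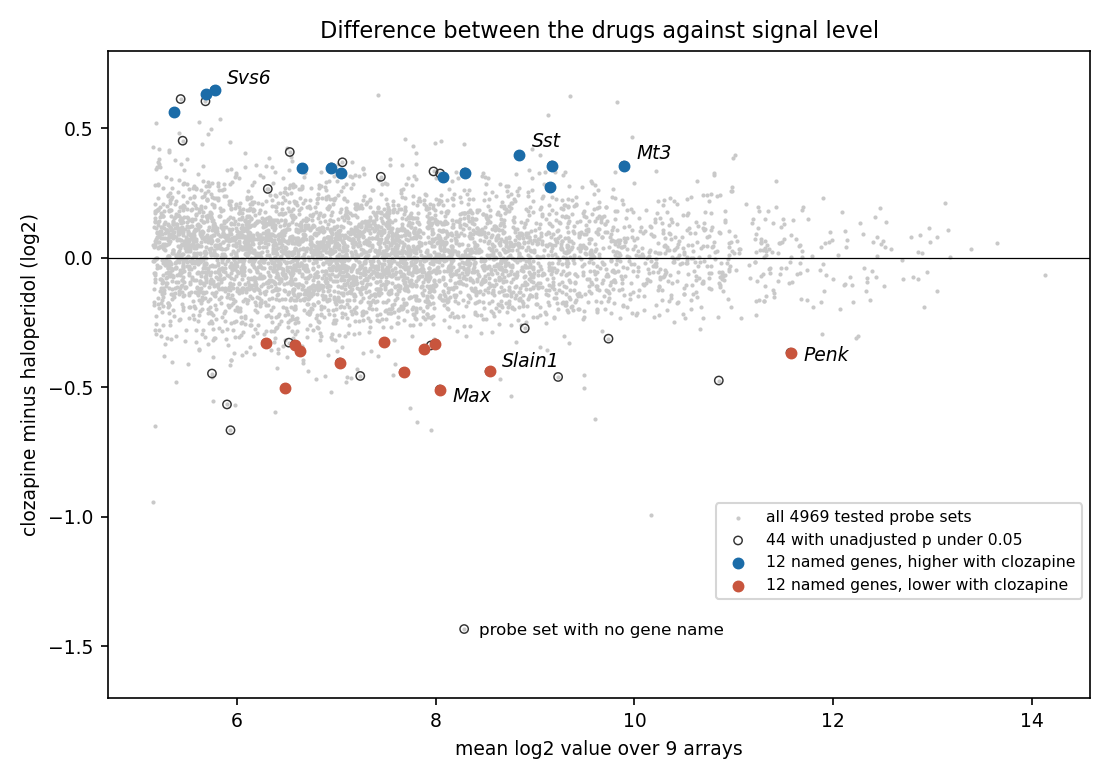
Clozapine minus haloperidol in log2 units (vertical) against the mean log2 value over 9 arrays (horizontal) for the 4969 tested probe sets in grey, the 44 with an unadjusted p under 0.05 ringed, and the 24 named genes filled. Most points lie within 0.5 of 0 at every level, and the named genes are spread over the range of signal.

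Penk, the enkephalin precursor of indirect-pathway striatal neurons, was among the 24 genes of lowest p. Its values were 11.36, 11.31 and 11.44 with clozapine, 11.82, 11.62 and 11.77 with haloperidol, and 11.56, 11.58 and 11.68 in the controls. The clozapine arrays lay lowest, the haloperidol arrays highest, and the controls between, with 1 control above the lowest haloperidol array. The means were 11.37 ± 0.06 with clozapine and 11.74 ± 0.10 with haloperidol (SD, n = 3), a difference of -0.37 ± 0.12 (SE) or 1.29-fold (limma unadjusted p = 0.0167, adjusted p = 0.999). Within the array pairs Penk differed by -0.41, -0.31 and -0.38. The probe set of these values carries a suffix that marks probes shared by a family of sequences. A second Penk probe set, of a type whose probes were chosen under relaxed rules, had 8.63, 8.22 and 8.57 with clozapine and 8.93, 8.62 and 9.46 with haloperidol. Clozapine 1 lay just above haloperidol 2, so that the arrays overlapped, and its difference was -0.53 ± 0.23 (limma unadjusted p = 0.0521). Both Penk probe sets drop out where probe sets with special suffixes are removed, so Penk has no value in that setting.

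The other genes of the 2 striatal pathways showed no such separation. Drd2, the D2 receptor gene, had 5.49, 5.39 and 5.29 with clozapine and 5.28, 5.39 and 5.65 with haloperidol. Its difference was -0.05 (95% confidence interval -0.38 to 0.28), and it read 0.06 without haloperidol 3. Penk and Drd2 were the members of the indirect-pathway list that passed the filter, 2 of 6. On the direct pathway, the prodynorphin gene Pdyn differed by 0.10 (interval -0.17 to 0.38) and the substance P gene Tac1 by 0.07 (-0.21 to 0.35), and both turned negative with arrays centred on all probe sets, at -0.02 and -0.05. Sfxn1, the third direct-pathway gene that passed, differed by 0.20 ± 0.22. Of 11 genes shared by both kinds of neuron that passed the filter, 9 lay higher with clozapine, with a median of 0.06, beside 52.6% of all named genes and a median of 0.01. None of the 11 was without overlap between the drugs. They include the phosphodiesterase gene Pde1b at 0.12 and the phosphatase gene Ptpn5 at 0.05.

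Sst, the precursor of somatostatin, a peptide of a large class of cortical and striatal interneurons, had the lowest p of the genes higher with clozapine. Its values were 9.15, 8.93 and 9.01 with clozapine and 8.52, 8.62 and 8.77 with haloperidol, so the drugs did not overlap. The controls spread wider than either drug, at 9.33, 8.92 and 8.30, and covered both. The means were 9.03 ± 0.11 and 8.64 ± 0.13 (SD, n = 3), a difference of 0.40 ± 0.13 (SE) or 1.32-fold (limma unadjusted p = 0.0174, adjusted p = 0.999), with 0.38, 0.31 and 0.50 in the array pairs. Npy, a peptide made by part of the same interneurons, differed by 0.14 (interval -0.15 to 0.43) with overlapping arrays. The calcium-binding protein gene Calb1 lay lower with clozapine without overlap, by -0.13, and the peptide gene Cck differed by 0.05, with a sign that changed under 5 of the alternatives. Of the 8 interneuron genes that passed the filter, 4 lay higher with clozapine and 4 lower.

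The somatostatin promoter is a textbook carrier of the cAMP response element, the sequence TGACGTCA, which reads the same on both strands. It was searched in the RefSeq promoter windows of GRCm38.p6 because Sst stood among the genes of lowest p. The 3 stretches below are those of Sst, of Gtf3c1, the other gene among the 24 named genes with the element, and of Dusp1, an immediate early gene described further on. Each is printed on the gene's strand, 5′ to 3′, with the element in capitals.

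Sst, chr16:23890845-23890932, minus strand: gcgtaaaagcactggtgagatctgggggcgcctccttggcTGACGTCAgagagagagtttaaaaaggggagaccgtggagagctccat

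Gtf3c1, chr7:125707723-125707850, minus strand: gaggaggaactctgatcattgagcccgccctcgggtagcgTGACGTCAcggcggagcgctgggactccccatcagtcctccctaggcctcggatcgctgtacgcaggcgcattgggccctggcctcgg

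Dusp1, chr17:26508528-26508655, minus strand: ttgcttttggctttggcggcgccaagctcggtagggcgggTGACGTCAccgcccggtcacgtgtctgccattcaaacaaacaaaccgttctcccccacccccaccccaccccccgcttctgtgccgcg

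The element begins 48 bases before the gene's start in Sst, 122 in Gtf3c1 and 143 in Dusp1. It was present in 1.79% of all 32851 windows and in 3.96% of the 3257 tested genes that had a window. Among genes whose arrays did not overlap, 7 of 94 with a window carried it when higher with clozapine and 2 of 98 when lower. The 7 include Sst, which prompted the search, and also Gtf3c1 and Dusp1. The 2 were Gpm6b at -0.20 and Taf11 at -0.30. Because the element was chosen with Sst in view, these counts are no test of a link between the element and either drug. Of the 21 named genes with a window, 2 carried it. A match is a stretch of letters, and binding of any factor was not measured.

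The 12 genes of lowest p on the higher side, Sst included, differed by 0.27 to 0.65 log2 units, or 1.21- to 1.57-fold. Mapk8ip1, a scaffold that gathers the kinases of the JNK pathway, had 9.15, 9.30 and 9.30 with clozapine and 8.97, 8.88 and 8.82 with haloperidol, without overlap. Its difference was 0.36 ± 0.12, and the controls, at 9.27, 9.57 and 9.27, all lay above the haloperidol arrays. Ap2m1, a subunit of the clathrin adaptor that retrieves synaptic vesicles, had the tightest groups, at 9.16, 9.18 and 9.18 with clozapine and 8.92, 8.93 and 8.87 with haloperidol. Its difference was 0.27 ± 0.11, and its controls reached from 9.12 to 9.58.

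Mt3, a metallothionein of brain that binds zinc and copper, had 10.27, 9.99 and 9.90 with clozapine and 9.73, 9.65 and 9.72 with haloperidol. All 3 clozapine arrays lay above the haloperidol arrays, and the controls ran from 9.47 to 10.26 across both. Its relative Mt2 had 9.89, 9.79 and 9.85 against 9.53, 9.67 and 9.54, again without overlap, with a difference of 0.26 ± 0.11 (unadjusted p = 0.0516). Capns1, the regulatory subunit of the calcium-dependent protease calpain, differed by 0.33, the ring-finger gene Rnf208 by 0.33, Gtf3c1 of the RNA polymerase III factor TFIIIC by 0.31 and the lysosomal protease gene Ctsf by 0.35, all without overlap. Rrp7a, which acts in ribosomal RNA processing, differed by 0.35 with overlapping arrays. Of the 12 genes on this side, 9 were without overlap, and the control mean lay above the haloperidol mean in 12 and between the drugs in 6. Over all named genes, 109 of 3974 were without overlap on this side. The 12 genes were picked by their low p in these same arrays, which favours separated arrays and a low haloperidol mean. The counts therefore add no evidence of a difference, or of which drug departs from the controls.

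The remaining 3 genes on the higher side were read by dim probe sets of the relaxed type. Flg, a skin protein, had 5.28, 5.78 and 5.46 with clozapine and 5.06, 5.22 and 4.55 with haloperidol. Svs6, a seminal vesicle protein, had 5.56, 6.32 and 5.89 against 5.41, 5.65 and 4.77, and Derl2, of protein disposal at the endoplasmic reticulum, 5.51, 6.13 and 5.83 against 5.33, 5.58 and 4.67. The 3 profiles ran alike: clozapine 2 was highest and haloperidol 3 lowest of the treated arrays in each. Probe sets of this type, marked with the suffix r, made up 7 of the 21 with a low p on the higher side (33.3%), 0 of the 23 on the lower side and 3.74% of all tested. In 2 genes picked out after their values were seen, the probe sets of a gene parted. The relaxed probe set of Aktip differed by 0.60, and the other probe sets of Aktip by 0.17 and -0.00. That of Cnot7 differed by 0.54 (unadjusted p = 0.0529), and the other one by -0.19. Without probe sets with special suffixes, 15 were higher and 18 lower at an unadjusted p under 0.05.

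On the lower side, Slain1, which promotes the growth of microtubules, had the lowest p of a named gene. Its values were 8.41, 8.34 and 8.58 with clozapine and 8.89, 8.81 and 8.95 with haloperidol, without overlap. The difference was -0.44 ± 0.12 or 1.36-fold (limma unadjusted p = 0.0084, adjusted p = 0.999). The controls, at 8.61, 7.87 and 8.41, lay with or below the clozapine arrays apart from the first. Rabggtb, a subunit of the enzyme that attaches lipid anchors to Rab proteins, had 7.49, 7.30 and 7.59 with clozapine and 8.00, 7.91 and 7.79 with haloperidol. It differed by -0.44 ± 0.13, and its controls, from 7.55 to 7.75, lay between the means of the drugs.

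Among the rest, Adsl, an enzyme of purine synthesis, had 6.36, 6.41 and 6.21 with clozapine and 6.50, 7.04 and 6.95 with haloperidol, a difference of -0.50 ± 0.17. The lowest haloperidol array stood nearer to the clozapine arrays than to its own group, and the controls ran from 6.18 to 6.40, beside the clozapine arrays. Tardbp, which encodes an RNA-binding protein known from motor neuron disease, had 7.84, 7.63 and 7.70 against 8.14, 8.08 and 8.01, a difference of -0.35 ± 0.12. Its second probe set differed by -0.24 ± 0.14 with overlapping arrays. Ireb2, an iron sensor that binds messenger RNA, differed by -0.40 ± 0.14, and Mrps22 of the mitochondrial ribosome by -0.36 ± 0.15.

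Wtap, of the complex that methylates adenosine in RNA, differed by -0.33 ± 0.13, but its second probe set gave 0.13 ± 0.24. Max, the partner of the Myc transcription factors, had 8.00, 7.42 and 8.10 with clozapine and 8.12, 8.43 and 8.50 with haloperidol, and in the array pairs it differed by -0.49, -1.01 and -0.02. Its difference of -0.51 ± 0.21 became -0.30 without clozapine 2. Cep350 of the centrosome, Tmem43 of the nuclear envelope and Api5, an inhibitor of cell death, each differed by -0.33 or -0.34. All 12 genes on this side were without overlap, between 1.25- and 1.42-fold, and the control mean lay between the drugs in 7 and above the haloperidol mean in 0. Over all named genes, 118 of 3974 were without overlap on this side. As before, the choice by low p favours separated arrays, and here a high haloperidol mean, so the counts add no evidence. Control 3, whose correlations with the other arrays ran from 0.900 to 0.961, is part of the control means.

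**Figure D3:**
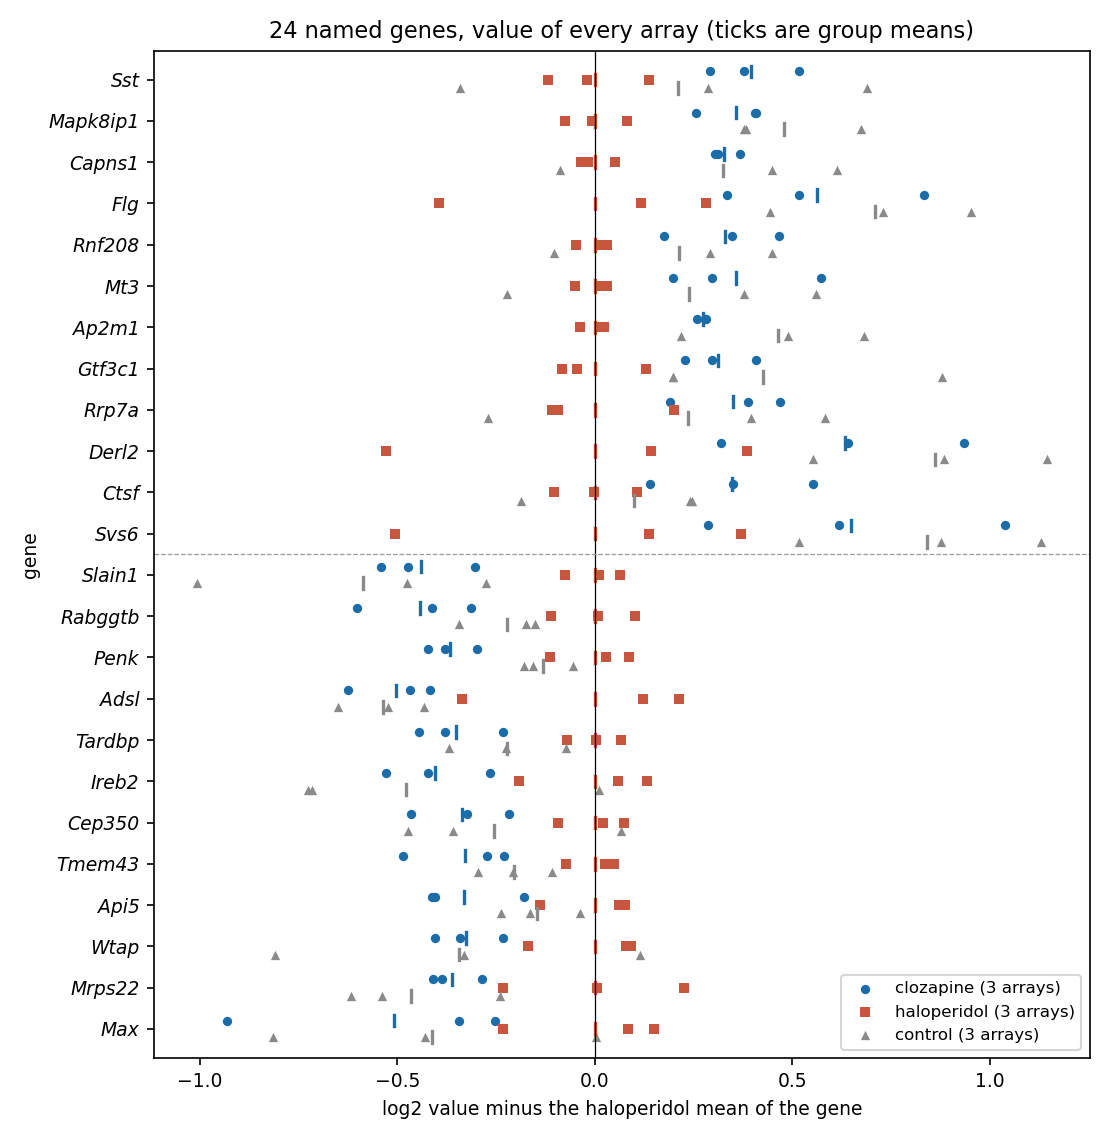
Value of each of the 9 arrays minus the haloperidol mean of the gene (log2 units, horizontal) for the 24 named genes (vertical), with circles for clozapine, squares for haloperidol, triangles for untreated controls and short bars for group means. Clozapine and haloperidol arrays are separated in 9 of the upper 12 genes and in 12 of the lower 12, and the controls spread across both. The genes were picked by their low p in these same arrays, which favours such separation.

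The largest difference of all belonged to a probe set that the gene table used here leaves unnamed. It had 6.98, 7.75 and 7.64 with clozapine and 8.96, 9.49 and 8.22 with haloperidol, a difference of -1.43 ± 0.34 (unadjusted p = 0.00369, adjusted p = 0.999). The controls, at 8.09, 8.15 and 9.29, all lay above the clozapine arrays. The suffix of this probe set marks probes shared by a family of sequences.

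Among 496 genes with 2 or more tested probe sets, 1 had all of them without overlap on the same side. This was Csf1r, the receptor by which microglia receive their survival signal. Its probe set of higher mean had 7.91, 7.99 and 8.00 with clozapine and 7.79, 7.88 and 7.84 with haloperidol, a difference of 0.13 ± 0.11. The other one differed by 0.32 ± 0.15. Of the 12 microglial and complement genes that passed the filter, 9 lay higher with clozapine, with a median of 0.13, including C1qa at 0.18, Cd53 at 0.23 and Laptm5 at 0.21, and Csf1r was the member without overlap. The 3 that lay lower were Tyrobp at -0.08, Ctss at -0.05 and B2m at -0.00. The median was 0.05 without clozapine 1, 0.07 without haloperidol 1 or 2, and 0.0043 with arrays centred on all probe sets.

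Immediate early genes, which neurons switch on within minutes of activity, had a median difference of 0.06, with 12 of the 18 that passed the filter higher with clozapine. With 1 array left out this median ran from -0.02 without haloperidol 2 to 0.23 without haloperidol 1, and it was -0.01 without haloperidol 3. Fos differed by 0.02 ± 0.28, Egr1 by 0.03 ± 0.14, Junb by 0.11 ± 0.21 and Nr4a1 by 0.05 ± 0.24, and each of these turned negative with arrays centred on all probe sets. Ier2 and Dusp1 were the members without overlap. Ier2 had 5.99, 5.78 and 5.80 with clozapine and 5.67, 4.79 and 5.54 with haloperidol, a difference of 0.53 ± 0.24 (unadjusted p = 0.0588). Dusp1, a phosphatase that switches off MAP kinases, had 9.01, 9.10 and 9.10 against 9.01, 8.43 and 8.76, so that the lowest clozapine and the highest haloperidol array were equal to 2 decimals. In both genes haloperidol 2 was lowest. In the other direction, the Krüppel-like factor genes Klf4 and Klf10 lay at -0.35 and -0.38 with overlapping arrays.

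Receptors through which the drugs act were mostly too dim to test. Of 17 serotonin, muscarinic, adrenergic and histamine receptor genes on the array with 1 symbol, 1 passed the filter. This was Chrm1, the muscarinic M1 receptor gene, with 6.65, 6.20 and 6.01 under clozapine and 5.97, 5.93 and 6.35 under haloperidol. The arrays overlapped, and the difference was 0.20 (interval -0.27 to 0.68). Of 11 genes of dopamine synthesis, transport and signalling that passed, 7 lay higher with clozapine, with a median of 0.09 that read 0.00 without haloperidol 1, and none was without overlap. The G protein gene Gnao1 shows how probe sets can part: its 4 tested probe sets gave 0.33, 0.19, -0.29 and 0.36, of which the last was without overlap.

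Large housekeeping groups had medians close to that of all named genes. Over all 3974 named genes, 52.6% lay higher with clozapine, and 109 were without overlap above and 118 below. The counts of the lists are given beside these, with no test. Proteasome subunits lay lower with clozapine in 26 of 38 genes, with a median of -0.04, which ran from -0.10 to -0.07 with 1 array left out. Psma5 at -0.22 and Psmb1 at -0.25 lay lower without overlap and Psmb10 at 0.11 higher, and a second probe set of Psmb1 gave 0.06 with overlapping arrays. Ubiquitin-family enzymes lay lower in 20 of 32, with a median of -0.05, among them Nae1, which starts Nedd8 conjugation, at -0.27 with 8.80, 8.76 and 8.70 against 9.02, 8.96 and 9.09. Itch, a ubiquitin ligase, lay at 0.13, without overlap on the other side. RNA-binding and splicing factors lay lower in 37 of 59, with a median of -0.04 and 4 genes without overlap below against 1 above. Hnrnpu at -0.37 and Hnrnpa1 at 0.32, both RNA-packaging proteins, stood on opposite sides. Respiratory chain genes lay lower in 31 of 54, with a median of -0.04 that read 0.03 without haloperidol 3. Sdhd of complex II at -0.29 and Atp5c1 of ATP synthase at -0.19 lay lower without overlap, and Ndufa3 of complex I at 0.21 higher. A second probe set of Atp5c1 gave -0.17 with overlapping arrays.

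Glucocorticoid-responsive genes lay higher with clozapine in 11 of 13, with a median of 0.08, and Mt2 and Dusp1 were the members without overlap. This median ran from 0.03 without haloperidol 1 to 0.20 without clozapine 1. Circadian clock genes lay higher in 3 of 13, with a median of -0.08, and none was without overlap. Synaptic vesicle genes lay higher in 22 of 31, with a median of 0.05, MAP kinase genes in 13 of 22, with a median of 0.04, and Rab and Arf genes in 16 of 32, with a median of -0.00. With 1 array left out the circadian median ran from -0.09 to 0.00, the synaptic vesicle median from -0.05 to 0.21 and the MAP kinase median from -0.02 to 0.12. Across all 38 lists, 0 held a member with an adjusted p under 0.05. All named genes together lay higher in 52.6%, with 109 of 3974 without overlap above and 118 below.

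**Figure D4:**
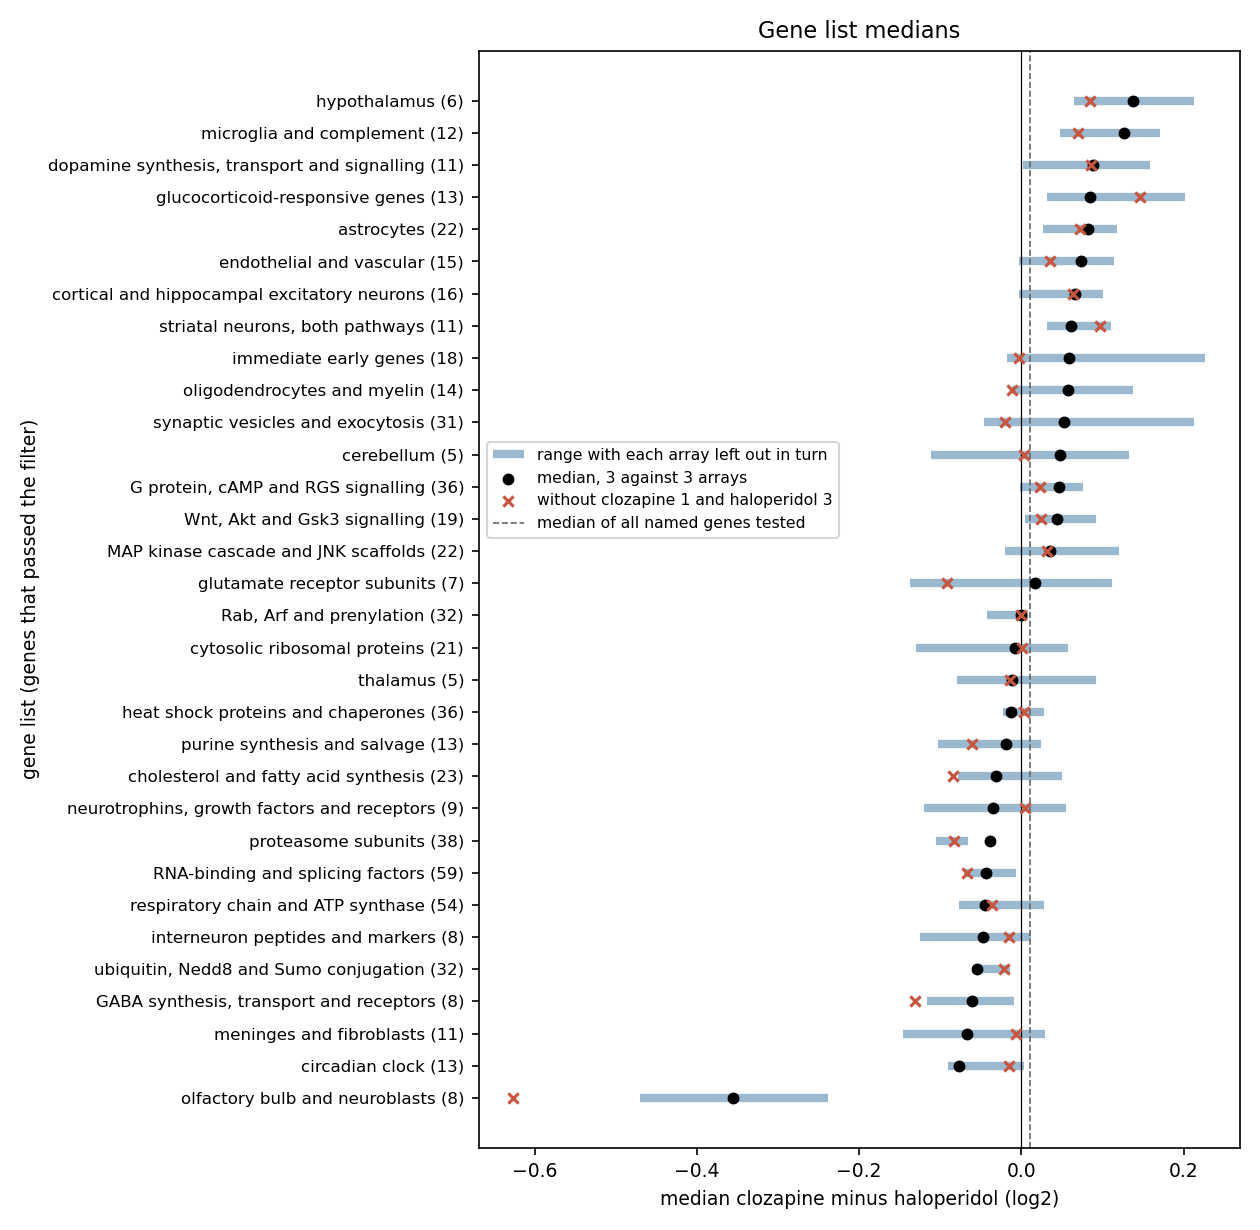
Median clozapine minus haloperidol (log2 units, horizontal) of each gene list with at least 5 genes that passed the filter (vertical, number of genes in brackets), as a point for all 6 arrays, a bar for the range when each array is left out in turn, and a cross without clozapine 1 and haloperidol 3. All medians but that of the olfactory bulb and neuroblast list lie between -0.08 and 0.14.

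Among the lists with at least 5 genes that passed the filter, the widest median belonged to markers of the olfactory bulb and of migrating neuroblasts, the young interneurons that travel to the bulb along the wall of the ventricle. All 8 that passed the filter lay lower with clozapine, with a median of -0.36, and none was without overlap. Over all 18 genes of this list on the array, 10 of them below the filter, 5 lay higher with clozapine and 13 lower. The median of the 8 was -0.63 without both clozapine 1 and haloperidol 3 and -0.24 without clozapine 2. Dcx, which stabilises microtubules in migrating neurons, had 6.24, 5.28 and 5.29 with clozapine and 6.48, 6.11 and 5.93 with haloperidol, a difference of -0.57 ± 0.28. Dlx1, a transcription factor of forebrain interneurons, had 8.24, 7.06 and 7.21 against 8.64, 7.94 and 7.83, a difference of -0.63 ± 0.35. Clozapine 2 and 3 were low in both genes, and clozapine 1 lay within the haloperidol range.

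This list moved with single arrays and array pairs. Its median level relative to the 9-array mean of each gene was 0.05, -0.50 and -0.36 in clozapine 1 to 3. It was 0.43, 0.17 and -0.01 in haloperidol 1 to 3. The untreated controls, at -0.50, 0.39 and 0.45, spread as widely as the 6 treated arrays together. In the pair of clozapine 1 and haloperidol 3 Dcx differed by 0.31 and Dlx1 by 0.41, and in the other pairs by -0.83 and -1.19 and by -0.88 and -1.43. Fabp7, a fatty acid binding protein of radial glia and young astrocytes, followed the same course, with 10.58, 8.84 and 9.31 against 10.96, 10.49 and 10.26, a difference of -0.99 ± 0.43 (unadjusted p = 0.0511). Omp, the marker of olfactory sensory neurons, stayed near the floor in all arrays. Eomes and Th, found in bulb neurons, were below the filter but varied between arrays. The brighter Eomes probe set had 5.14, 3.84 and 4.05 with clozapine and 5.74, 5.22 and 4.85 with haloperidol. Its controls were 3.68, 5.58 and 5.48. Th had 5.83, 4.60 and 4.38 with clozapine and 5.49, 5.54 and 4.91 with haloperidol, with controls at 3.85, 5.80 and 5.22. How far the dissections reached into the bulb is not recorded, and its part in these values was not tested.

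Astrocyte genes lay higher with clozapine in 15 of 22, with a median of 0.08, and myelin genes in 9 of 14, with a median of 0.06 that read -0.01 without clozapine 1. Mog, a surface protein of myelin, had 8.93, 8.95 and 8.77 with clozapine and 8.42, 8.70 and 8.70 with haloperidol, without overlap, a difference of 0.28 ± 0.13. Mbp, the main myelin basic protein gene, differed by 0.19 (interval -0.19 to 0.58) with overlapping arrays, and its second, dimmer probe set by 0.02, also with overlap. The hemoglobin genes Hba-a1 and Hbb-b2 lay higher with clozapine, by 0.60 ± 0.38 and 0.63 ± 0.37, with clozapine 1 the highest and haloperidol 1 the lowest array in each. Without haloperidol 1 these differences were 0.19 and 0.25, and without clozapine 1 they were 0.33 and 0.36. The pituitary hormone genes raised in haloperidol 3, such as Gh and Prl, lay below the filter and entered no test. In the pituitary list 2 genes passed the filter, Scg2 and Chga. Chga stood at 7.72 in haloperidol 3, against 6.59 and 6.50 in haloperidol 1 and 2. Its clozapine arrays ran from 6.45 to 6.87 and its controls from 6.10 to 7.26. The median of this list was -0.20, and -0.01 without haloperidol 3.

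**Figure D5:**
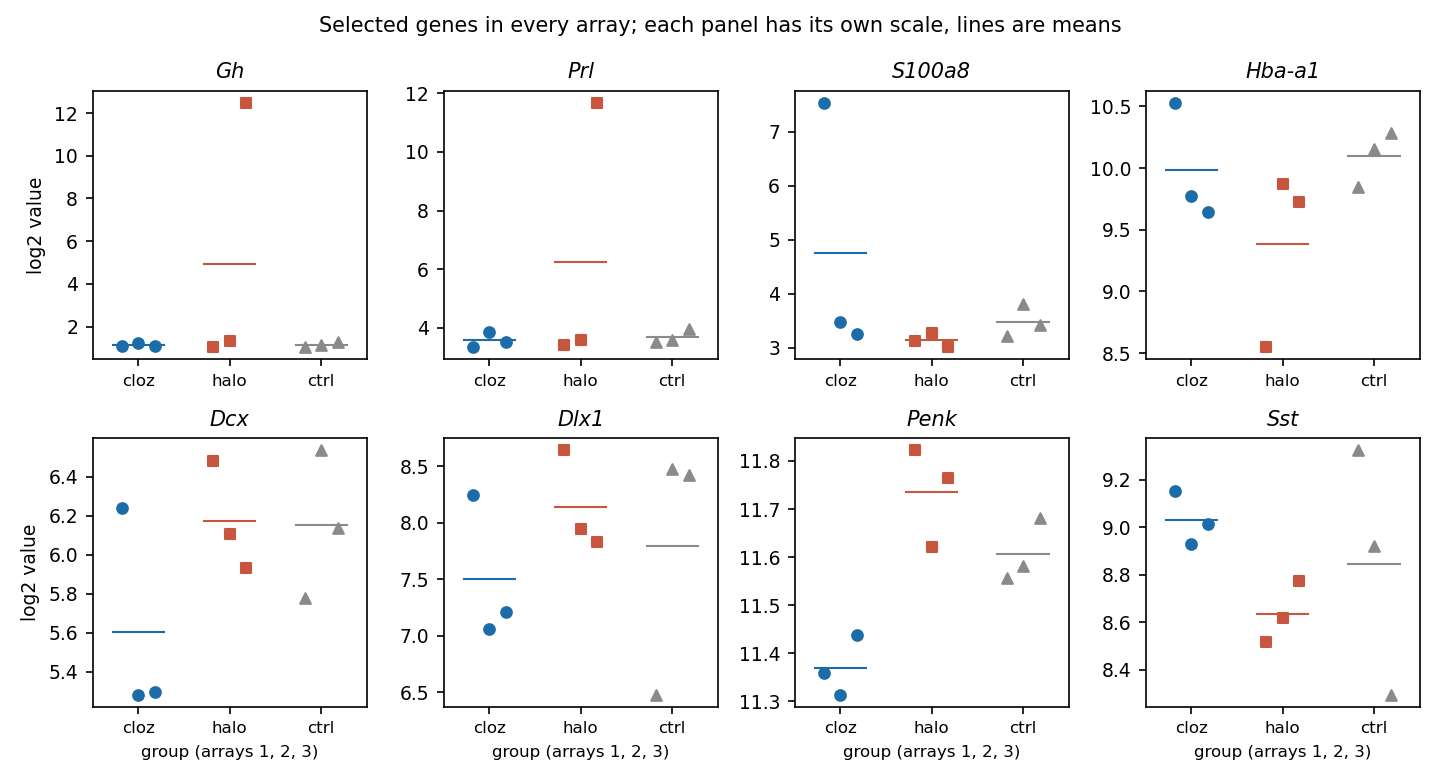
Log2 values (vertical, a scale for each panel) of 8 genes in the 9 arrays, with arrays 1 to 3 from left to right in each of clozapine (cloz), haloperidol (halo) and untreated control (ctrl), and lines at group means. Gh and Prl are high in haloperidol 3 alone and S100a8 in clozapine 1 alone, whereas Penk and Sst separate all clozapine arrays from all haloperidol arrays. Penk and Sst are among the genes of lowest p in these same arrays, a choice that favours such separation.

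Within the array pairs, all 3 differences lay past 0.3 log2 units on the same side in 21 probe sets higher with clozapine (0.423%) and 15 lower (0.302%). Of the 21, 12 were of the relaxed probe type. Smc3, a subunit of the cohesin ring that holds sister chromosomes, had 6.67, 5.56 and 6.22 with clozapine and 6.83, 6.22 and 7.18 with haloperidol. Its arrays overlapped, with an unadjusted p of 0.116, while its pair differences were -0.51, -0.66 and -0.62. Usp8, a deubiquitinase of endosomes, had pair differences of -0.50, -0.52 and -0.41 and a difference of -0.48 ± 0.21 (unadjusted p = 0.0543). Glul, the glutamine synthetase of astrocytes, had 7.38, 6.78 and 8.53 with clozapine and 8.22, 6.47 and 6.91 with haloperidol, and pair differences of 0.47, 0.31 and 0.30. Penk, Sst and Mapk8ip1 also lay past 0.3 in every pair. These genes were found with the pairs in view, and no test was made of them.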

How the data were processed

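RNA from the forebrain of 9 mice was read on 1 array each, and the 6 arrays of drug-treated mice were compared. The deposited table holds log2 values that the authors made with GCRMA, per the submitters' processing notes, a method that corrects probe background from sequence, normalises arrays to each other and summarises probe sets. Its version was not given in the sources used here. GCRMA draws unexpressed probe sets towards a floor, which can understate or shape small differences at low signal. Its 12488 probe sets included 66 Affymetrix controls, which were left out. Of the other 12422, 10833 had 1 gene symbol, 396 several and 1193 none, and 10817 symbols were updated through Entrez identifiers to the RefSeq table of GRCm38.p6.

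Arrays were grouped by title. Each was centred on the median of the tested probe sets. Limma 3.58.1 in R 4.3.3 (lmFit and eBayes, two-sided) fitted clozapine minus haloperidol on 6 arrays (residual degrees of freedom 4, prior 3.34), and p-values were adjusted by Benjamini-Hochberg over 4969 probe sets at a threshold of 0.05. The number of arrays limits the precision. The fit was also run on simulated data with independent noise in every array. That noise lacked the likeness within the array pairs, so the run cannot show how the fit behaves under it. Lists, comparisons between arrays and figures were made with Python 3.11.15. Named were the 12 genes per side of lowest p with their other probe sets, genes whose every probe set was without overlap, the 3 genes of lowest p of each list and a set of receptor, activity, peptide and cell marker genes. Genes past 0.3 in every array pair were added after the values were seen. The members, lists and rules were chosen with earlier results of these data known. Gene lists are described by counts and medians, with no set test. The replicate numbers of the 2 drugs did not pair the arrays: deviations from the group means correlated at -0.39 for replicate 1, 0.71 for replicate 2 and -0.34 for replicate 3. Alternatives varied the filter, the centring, the arrays fitted, the prior, array weights, the block, the probe set type and the arrays left out.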

Additional observations from a re-analysis of the deposited data

Results flagged for a closer look

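Single arrays carried strong signals in probe sets that entered no comparison because their mean lay below the filter or because they are array controls. Each value below lay more than 3 log2 units above the highest control array. In haloperidol 3, pituitary hormone transcripts stood out, with Gh at 12.49, Prl at 11.68, Pomc at 10.23, the glycoprotein hormone alpha subunit Cga at 7.81 and 7.55 in 2 probe sets, and Tshb at 6.06. Dlk1, a membrane protein known from endocrine tissue, stood at 6.83 in the same array. Lhb and Fshb, the gonadotropin beta subunits, were not raised there, at 0.71 and 2.55. In clozapine 1, the neutrophil transcripts S100a8 and S100a9 stood at 7.54 and 7.04. In haloperidol 2, the 3 control probe sets of 18S ribosomal RNA stood at 10.93, 9.40 and 9.02, and a control probe set for the antisense strand of Gapdh at 9.59. That Gapdh probe set was next highest in clozapine 2, at 8.57, the array that resembles haloperidol 2 most. The part of these signals in the differences between the drugs was not tested beyond leaving the arrays out.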

How the results depend on the processing

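Limma called 0 probe sets at an adjusted p of 0.05 in all 20 alternative settings and 0 at 0.10, with a lowest adjusted p of 0.375, reached without clozapine 1. The counts at an unadjusted p under 0.05 (21 higher and 23 lower as reported) moved more. Filtering at the 40th percentile gave 41 lower, at the 75th 11 and 15, and no filter, which also recentres on all probe sets, 386 lower. No filter with the centring kept, added after seeing the data, gave 91 and 59. Centring on all probe sets gave 1 and 110, the fit to 9 arrays 12 and 15, and array weights 65 and 59. Leaving out 1 array gave 6 to 73 higher and 5 to 54 lower, where both minima came without clozapine 2 and the maxima without clozapine 1 and without haloperidol 1. Without haloperidol 3 the counts were 9 and 18, and without haloperidol 2 they were 27 and 49. With the replicate block they were 13 higher and 23 lower, although the numbers did not pair the arrays. Of the 24 genes of lowest p, 0 changed sign under the settings run. They were chosen by low p in the same arrays that these settings reuse, which favours a steady sign, so the count is no independent check. Of 130 genes described, 22 changed sign at least once, in 59 of 2547 values, and none passed an adjusted p of 0.05. Centred on all probe sets, with or without the filter, the differences were Pdyn -0.0203, Tac1 -0.0522, Fos -0.0980, Egr1 -0.0914, Junb -0.00971, Nr4a1 -0.0708, Cck -0.0725, Gfap -0.0811, Pde1b -0.00233, Tef -0.0306 and Pcp2 -0.0127. With array weights they were Cck -0.0111 and Gfap -0.00997, and without both clozapine 1 and haloperidol 3 Drd2 0.00780, Fos -0.0695, Egr1 -0.00660, Junb -0.0299, Per2 0.0479, Chga 0.00842 and Igf2 0.00441. With 1 array left out, values ran from -0.127 to 0.0556 for Drd2, -0.186 to 0.291 for Fos, -0.0629 to 0.0977 for Egr1, -0.0497 to 0.290 for Junb, -0.184 to 0.222 for Nr4a1, -0.325 to 0.0175 for Homer1, -0.0837 to 0.142 for Cck, -0.0347 to 0.109 for Gfap and -0.170 to 0.0176 for Dbp, and from -0.371 to 0.124 for Per2, -0.00624 to 0.452 for Gnai2, -0.257 to 0.0217 for Grik2, -0.451 to 0.117 for Gria3, -0.496 to 0.112 for Chga, -0.181 to 0.121 for Rora, -0.0192 to 0.240 for Pcp2, -0.366 to 0.0816 for Igf2 and -0.0884 to 0.0324 for Bpgm. The cause was not tested. Of 759 list medians under alternatives, 108 moved by more than the spread between arrays. Centring on all probe sets moved the median of all tested probe sets by -0.12, so that list medians between 0 and 0.12 change sign under it.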
